A study of Mus musculus with 15 samples.

Results

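The 39 Hox genes of the mouse were followed in lumbar motor neurons from segments L1 to L3 of pups at postnatal day 6. The members are every gene of the deposited table whose symbol is Hox, a cluster letter from a to d and a number, which gave 39 of 36144 listed genes. The number is the paralogue number: genes with the same number in different clusters descend from a common ancestor. The neurons had been labelled with cholera toxin subunit B, a tracer carried back from the periphery, and cut out by laser, and poly(A) RNA was amplified before sequencing. There were 5 groups of 3 libraries. WT pups had the genotype Smn+/+;SMN2;SMNdelta7 and received vehicle. SMA pups had the genotype Smn-/-;SMN2;SMNdelta7, the SMNΔ7 model of spinal muscular atrophy, and received vehicle. The other groups were SMA pups given MW150 (an inhibitor of the stress kinase p38α) at 5 mg/kg, Pifithrin-alpha (a small-molecule inhibitor of p53) at 2.2 mg/kg or SMN-C3 (a modifier of SMN2 splicing that raises full-length SMN) at 3 mg/kg. All pups were injected intraperitoneally once a day, starting at postnatal day 0. Every group, WT included, carried the human SMN2 and SMNΔ7 transgenes on the FVB background, males and females were used in equal proportion, and the labels do not say whether a library pools pups. Libraries are named by group and number, such as WT 1.

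Hox genes encode transcription factors that bind DNA through a homeodomain, the protein part encoded by the homeobox. They lie in 4 clusters, HoxA to HoxD, and along each cluster the order of the genes follows the order in which they are used from hindbrain to tail, so the set that a cell expresses marks its position on the body axis. In the spinal cord, genes of middle number mark brachial and thoracic levels, Hox10 genes mark the lumbar level, and Hox11 to Hox13 genes mark more caudal levels. In motor neurons they help set the column and the pool, that is, the group of muscles a neuron serves.

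Levels are in TPM, a unit that corrects for transcript length and gives every library the same total, so genes can be compared with each other. The files hold no counts and the depth behind a value is unknown. Pearson's r between libraries over the tested genes was 0.838 to 0.972. From 12311 to 14916 genes reached 1 TPM in a library. The share of TPM from mitochondrially encoded genes was 21.9% in WT 1 and 20.4% in SMA+Pifithrin-alpha 3, against 3.76% to 12.6% in the other 13 libraries. Smn1, the deleted gene, stood at 8.97 to 23.3 TPM in WT and at 1.5 TPM or less in the 12 SMA libraries. All 8 motor neuron markers were above the filter, and Chat, the enzyme that makes acetylcholine, stood at 36.6 to 133 TPM. RNA of other cells was also present, and in such bulk libraries fewer cells of a type and less RNA per cell cannot be told apart. The summed TPM of 11 microglial markers was 56.2 to 91.8 in WT, 171 to 201 in SMA, 128 to 174 under MW150, 68.4 to 127 under Pifithrin-alpha and 91.0 to 123 under SMN-C3. For 10 oligodendrocyte lineage markers the ranges were 688 to 2077, 888 to 4260, 980 to 5849, 445 to 1380 and 644 to 1814 in the same order, and for 8 astrocyte markers 747 to 1461, 1351 to 1839, 1421 to 1773, 752 to 1472 and 1342 to 1558. Of the 11 spinal interneuron markers 4 passed the filter and Tlx3 was at 0 throughout.

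The Hox10 genes, Hoxa10, Hoxc10 and Hoxd10, had the highest summed level of any paralogue number, and their homeoboxes are shown because they are what these paralogues share and what read assignment has to tell apart. Each is 180 bases long, lies in exon 2 of 2 and is given 5′ to 3′ on the coding strand from the GENCODE M21 transcript on GRCm38. Capitals mark the 50 positions at which the 3 differ. Hoxa10 is on the minus strand at chr6:52232554-52232733, Hoxc10 on the plus strand at chr15:102970848-102971027 and Hoxd10 on the plus strand at chr2:74694141-74694320.
Hoxa10: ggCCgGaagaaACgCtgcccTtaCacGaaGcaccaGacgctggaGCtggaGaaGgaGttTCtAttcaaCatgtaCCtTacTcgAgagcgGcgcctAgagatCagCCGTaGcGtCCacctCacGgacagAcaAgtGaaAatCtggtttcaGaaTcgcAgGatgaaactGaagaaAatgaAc
Hoxc10: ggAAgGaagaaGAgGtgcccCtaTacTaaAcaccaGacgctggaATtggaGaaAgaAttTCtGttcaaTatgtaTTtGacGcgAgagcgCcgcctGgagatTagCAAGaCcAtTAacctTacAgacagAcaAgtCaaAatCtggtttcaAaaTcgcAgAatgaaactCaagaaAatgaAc
Hoxd10: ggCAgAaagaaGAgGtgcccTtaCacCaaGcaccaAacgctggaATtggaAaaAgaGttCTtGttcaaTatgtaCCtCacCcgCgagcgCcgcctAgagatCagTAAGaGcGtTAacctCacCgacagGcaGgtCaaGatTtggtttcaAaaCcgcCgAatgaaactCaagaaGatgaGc
Identity over these bases was 82.8% between Hoxc10 and Hoxd10, 80.6% between Hoxa10 and Hoxc10 and 78.9% between Hoxa10 and Hoxd10. A homeobox was found in all 39 genes. Pairs with the same number had a median identity of 80.6% (67.2% to 93.9%, 42 pairs), and other pairs 60.6% (46.1% to 88.9%, 699 pairs). No stretch of 31 bases, a word length used here to look for reads that could be assigned to more than 1 gene, was shared by Hoxa10 or Hoxd10 with any other gene of the table. Hoxc10 shared 7.34% of its words, all with Hoxc5, whose annotated span runs over it. The pair Hoxd3 and Hoxd4 overlaps on the same strand: 61.1% of the words of Hoxd3 and 49.1% of those of Hoxd4 occur in another gene, so the levels of these 2 are uncertain. Hoxa2 (13.7%) and Hoxa3 (12.6%) share words with the readthrough gene Gm28308, which stood at 0 to 3.82 TPM. For the other members the share was 4.55% or less. Strandedness of the libraries is not given in the sources used here, so reads from antisense RNAs of the clusters cannot be told apart from those of the genes they overlap.

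Hox level was low at number 1, was highest at number 10 and dropped sharply beyond it. The mean summed TPM over 15 libraries was 0.618 for number 1, 4.98 for 2, 8.58 for 3, 12.6 for 4, 11.2 for 5, 12.7 for 6, 26.1 for 7, 29.6 for 8, 51.7 for 9 and 100 for 10, and then 1.84 for 11 and 0.0116 for 13. Both Hox12 genes were listed at 0 in every library. Hox10 genes supplied a mean of 38.5% of all Hox TPM (27.0% to 51.4%) and Hox9 genes 20.0% (14.6% to 24.1%). By summed TPM Hox10 was the highest number and Hox9 the second in 15 of 15 libraries, and the third was Hox8 in 11 libraries and Hox7 in 4. Together the numbers 6 to 9 gave 46.2% and the numbers 1 to 5 gave 14.6%. The sums cover unequal numbers of genes: 2 for Hox7, 3 for Hox8, 4 for Hox9 and 3 for Hox10. Per gene, the mean was 33.5 TPM for Hox10, 12.9 for Hox9 and 9.88 for Hox8, with Hox7 level with Hox9. Hox10 was thus highest either way, whereas the order of Hox7, Hox8 and Hox9 depended on summing.

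**Figure D1:**
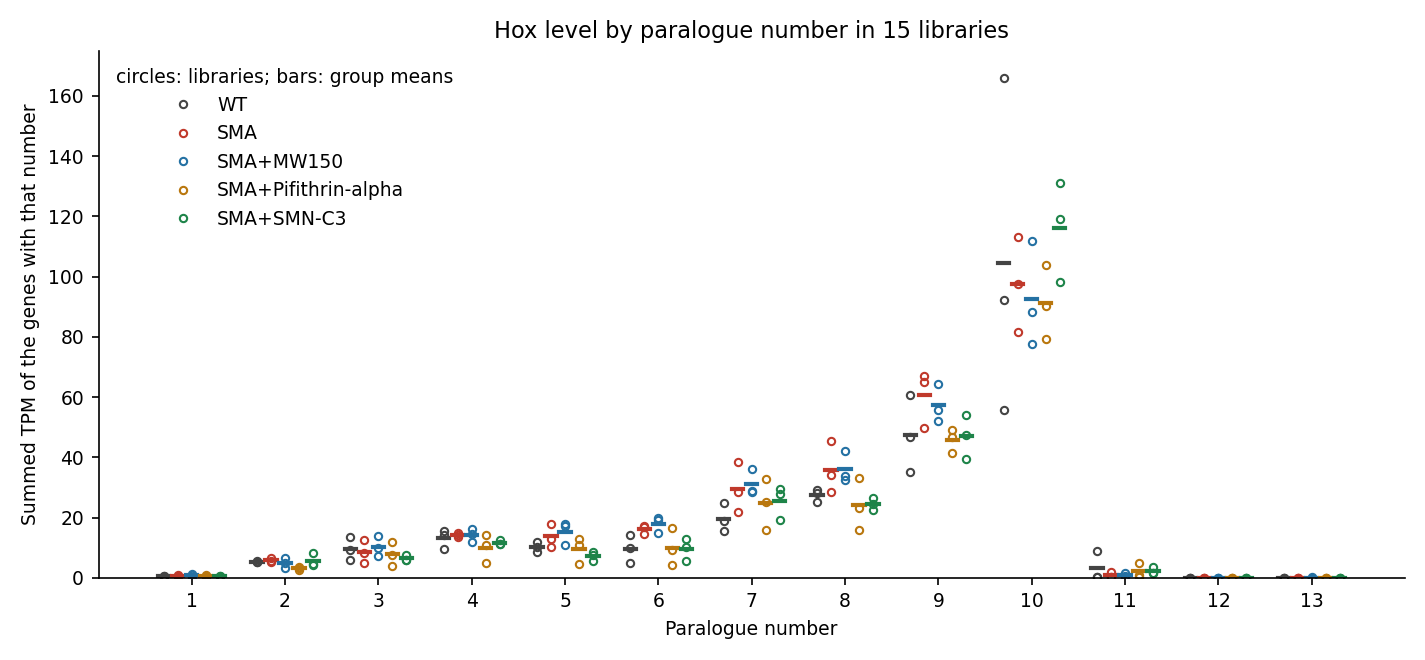
Summed TPM (y axis, linear) of the Hox genes of each paralogue number (x axis), with 1 circle per library, a bar at each group's mean and colours for the 5 groups. Hox10 is highest in all 15 libraries, from 55.8 to 166 TPM, and the level at number 11 is between 0.158 and 8.96 TPM.

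Hoxc10 (ENSMUSG00000022484.7, chr15:102966796-102971893, plus strand), a lumbar gene of the HoxC cluster, was the most abundant member with a mean of 38.4 TPM. It stood at 20.3, 30.3 and 64.5 TPM in WT 1 to 3, 23.0, 37.1 and 47.1 in SMA, 42.2, 38.5 and 42.3 under MW150, 41.4, 35.2 and 25.7 under Pifithrin-alpha and 47, 43.2 and 38.5 under SMN-C3. The WT libraries held both the lowest and the highest of the 15 values, so WT overlapped every other group. Hoxd10 (ENSMUSG00000050368.4, chr2:74691924-74695105, plus strand), a lumbar gene that acts with Hoxc10 in hindlimb motor neurons, had a mean of 38.3 TPM. Its values were 22.6, 37.8 and 70.6 TPM in WT, 49.7, 25.1 and 40.0 in SMA, 25.3, 17.6 and 41.2 under MW150, 31.6, 23.5 and 46.6 under Pifithrin-alpha and 49.4, 57.0 and 36.2 under SMN-C3. Either Hoxc10 (8 libraries) or Hoxd10 (7 libraries) was the highest member. Hoxa10 (ENSMUSG00000000938.11, chr6:52231197-52240854, minus strand) was steadier at 12.9, 24.1 and 30.7 TPM in WT, 25.0, 19.3 and 25.3 in SMA, 20.6, 21.6 and 28.3 under MW150, 31, 20.8 and 18.1 under Pifithrin-alpha and 23.1, 30.4 and 23.5 under SMN-C3. The WT range again covered all but 1 of the other values, with the lowest value in WT 1, the library of highest mitochondrial share. All 3 Hox10 genes were lowest among the WT libraries in WT 1 and highest in WT 3.

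The step down at number 11 was present in each cluster that has both genes. In HoxA, Hoxa11 had a mean of 1.32 TPM, 5.57% of that of Hoxa10. In HoxD, Hoxd11 had 0.505 TPM, 1.32% of Hoxd10. In HoxC, Hoxc11 had 0.0226 TPM, 0.0589% of Hoxc10, and was at 0 in 10 libraries. The Hox11 gene was below the Hox10 gene of its cluster in 15 of 15 libraries in all 3 clusters. Hoxa11, a gene of the lumbosacral transition, was the most uneven of the members that passed the filter: it stood at 0, 0 and 8.38 TPM in WT, 0, 0.208 and 1.67 in SMA, 0, 0 and 1.25 under MW150, 0.864, 0 and 2.33 under Pifithrin-alpha and 1.15, 2.59 and 1.31 under SMN-C3. A single WT library thus held the highest value, and only SMN-C3 had it above 1 TPM in all 3 libraries. Hoxd11 reached 2.51 TPM in SMA+Pifithrin-alpha 3 and 1.0 TPM or less elsewhere. Of the Hox13 genes, which act at the tail end of the axis and in the limb tip, Hoxa13 was above 0 in 1 library (0.165 TPM) and Hoxc13 in 1 library (0.0101 TPM), and Hoxb13 and Hoxd13 were at 0 in all.

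Below number 10 the HoxA, HoxC and HoxD genes led. Hoxa9 (ENSMUSG00000038227.15, chr6:52223100-52231089, minus strand), a gene of posterior thoracic and lumbar cord, had a mean of 24.3 TPM. It stood at 18.5, 28.9 and 22.2 TPM in WT, 28.0, 29.8 and 21.4 in SMA, 26.5, 25.4 and 26.9 under MW150, 22.3, 19.7 and 29.4 under Pifithrin-alpha and 15.9, 27.0 and 23.4 under SMN-C3. It had the smallest spread of the 10 most abundant members (coefficient of variation 17.5% over 15 libraries), and its group ranges overlapped throughout. Hoxd9 (mean 17.4 TPM), its HoxD counterpart, stood at 9.47, 24.0 and 18.2 TPM in WT, 27.2, 20.1 and 18.0 in SMA, 24.3, 14.6 and 14.3 under MW150, 13.8, 15.8 and 6.54 under Pifithrin-alpha and 16.5, 22.8 and 16.0 under SMN-C3. Its Pifithrin-alpha values lay below all 3 SMA values. Hoxc9 (mean 8.30 TPM) represses brachial limb-level genes in thoracic motor neurons.

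Hoxc8 (mean 19.1 TPM), a gene of the brachial to thoracic cord that acts in motor pool choice, stood at 22.0, 19.1 and 16.1 TPM in WT, 22.1, 33.2 and 17.2 in SMA, 23.8, 19.3 and 25.9 under MW150, 18.2, 15.3 and 10.4 under Pifithrin-alpha and 13.2, 15.8 and 15.2 under SMN-C3. Hoxd8 (mean 10.2 TPM), its HoxD counterpart, stood at 7.25, 8.97 and 8.80 TPM in WT, 11.2, 11.5 and 10.8 in SMA, 9.93, 13 and 15 under MW150, 14.6, 7.67 and 5.58 under Pifithrin-alpha and 9.34, 8.67 and 11.3 under SMN-C3. The 3 SMA values of Hoxd8 lay above the 3 WT values. Hoxa7 (mean 22.3 TPM), a thoracic gene, stood at 15.4, 23.6 and 17.1 TPM in WT, 15.1, 33.5 and 23.0 in SMA, 26.9, 26.2 and 28.7 under MW150, 25.8, 24.7 and 11.3 under Pifithrin-alpha and 12.7, 25.5 and 24.6 under SMN-C3. Its lowest value of the 15 was in SMA+Pifithrin-alpha 3, the other library of high mitochondrial share. Not all members were low there: Hoxa9 (29.4 TPM) and Hoxd10 (46.6 TPM) had their highest Pifithrin-alpha value in that library. These 7 genes (Hoxa7, Hoxc8, Hoxa9, Hoxd9 and the Hox10 genes) were among the 10 highest members in all 15 libraries.

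Hoxa5, Hoxc6 and Hoxd4, of cervical and brachial number, were lower but above 1 TPM in all 15 libraries. Hoxa5 (mean 9.44 TPM), which is needed in phrenic motor neurons, stood at 7.48, 8.79 and 9.92 TPM in WT, 9.63, 14.9 and 9.66 in SMA, 14.9, 9.21 and 13.6 under MW150, 8.37, 12.2 and 4.31 under Pifithrin-alpha and 7.22, 4.80 and 6.66 under SMN-C3. Hoxc6 (mean 5.66 TPM), a gene of brachial limb motor neurons, stood at 3.47, 3.62 and 5.33 TPM in WT, 7.43, 8.62 and 5.09 in SMA, 9.06, 9.54 and 8.65 under MW150, 8.34, 3.85 and 2.53 under Pifithrin-alpha and 5.04, 2.31 and 2.06 under SMN-C3. Its MW150 values were above, and its SMN-C3 values below, all SMA values. In its coding transcript MW150 (5.31, 5.13 and 6.45 TPM) and SMA (5.97, 5.70 and 4.03 TPM) overlapped. SMN-C3 (3.59, 1.36 and 1.88 TPM) stayed below SMA in that transcript. Hoxd4 (mean 8.68 TPM), a hindbrain and cervical gene, stood at 6.86, 11.2 and 9.69 TPM in WT, 8.91, 9.44 and 9.18 in SMA, 12.9, 8.98 and 9.79 under MW150, 8.66, 6.21 and 3.27 under Pifithrin-alpha and 9.0, 8.15 and 7.92 under SMN-C3. Its value depends on how reads are split with Hoxd3 (mean 4.20 TPM), which stood at 3.52, 2.98 and 3.33 TPM in WT and 4.04, 4.37 and 4.79 in SMA. Hoxb2 (mean 4.18 TPM), a hindbrain gene, stood at 4.37, 4.42 and 4.74 TPM in WT, 3.51, 5.33 and 5.15 in SMA, 2.48, 4.53 and 5.31 under MW150, 2.47, 3.25 and 2.77 under Pifithrin-alpha and 6.23, 4.21 and 3.93 under SMN-C3.

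The 4 clusters did not contribute alike. HoxA (11 genes) gave a mean of 89.2 TPM, HoxD (9 genes) 79.5 TPM and HoxC (9 genes) 74.0 TPM, whereas HoxB (10 genes) gave 17.6 TPM, which was 6.74% of all Hox TPM (3.69% to 9.39%). HoxB has no gene numbered 10 to 12. Its highest member was Hoxb2, and its genes Hoxb8 (mean 0.263 TPM) and Hoxb9 (1.59 TPM) had lower means than Hoxc8 and Hoxa9. The order of the 39 members was similar from library to library: Spearman's rho over the members had a median of 0.94 in the 15 pairs of libraries of the same group (0.87 to 0.98) and 0.94 in the 90 pairs of different groups (0.83 to 0.98). Genes are not independent replicates, and many members are near 0 in all libraries.

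**Figure D2:**
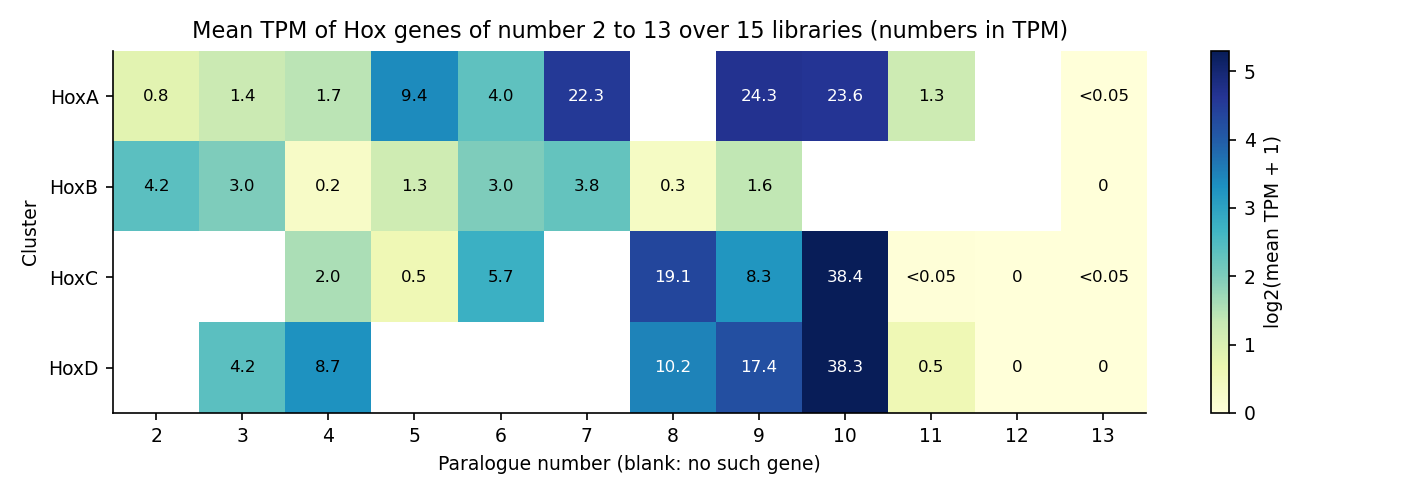
Mean TPM over 15 libraries of the Hox genes of paralogue number 2 to 13, by cluster (rows) and number (columns), coloured by log2(mean TPM + 1), with blank squares where the cluster has no such gene. HoxC and HoxD are highest at number 10 (38.4 and 38.3 TPM), HoxA is highest at number 9 with number 10 close to it (24.3 and 23.6 TPM), and HoxB is low throughout, with a highest mean of 4.18 TPM at number 2.

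Gene levels add all annotated transcripts, and for some members most of the TPM was assigned to transcripts that are not typed protein-coding. Transcripts of a gene overlap, so these splits are estimates. Hoxc10, Hoxd10, Hoxd9, Hoxd8, Hoxa5 and Hoxc9 were wholly from protein-coding transcripts. Hoxa10 had 38.5% of its TPM from these (9.83% to 62.3% by library). Its main transcript, ENSMUST00000126402.1, is typed processed transcript and lies at the 3′ end of the gene (chr6:52231199-52233324, GRCm38). This transcript lies within the span of the coding ENSMUST00000125581.1 (chr6:52231197-52234939). The processed transcript had a mean of 14.3 TPM (9.37 to 17.8), and the 2 coding transcripts had 5.81 TPM (ENSMUST00000125581.1) and 3.28 TPM (ENSMUST00000121043.1). All 3 hold the homeobox, and the accuracy of the split among them was not tested. Hoxd4 had 6.71% of its TPM from protein-coding transcripts (1.98% to 14.5%). The rest, a mean of 8.10 TPM, was ENSMUST00000144040.8, a processed transcript (chr2:74711929-74728868) that starts beside the first base of Hoxd3 (chr2:74711927-74748442) and also holds the homeobox.

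Hoxa9 had 66.6% from coding transcripts. Its processed transcript ENSMUST00000154641.7 had a mean of 5.25 TPM, with 3.92 ± 3.98 TPM in WT, 7.49 ± 1.83 in SMA, 9.21 ± 0.823 under MW150, 1.25 ± 2.16 under Pifithrin-alpha and 4.38 ± 3.82 under SMN-C3 (SD, n = 3 each). It was at 0 in 4 libraries, among them WT 1 and SMA+Pifithrin-alpha 3, while the main coding transcript, ENSMUST00000048680.7, had its highest value (27.4 TPM) in SMA+Pifithrin-alpha 3. Hoxc8 had 73.5% from its coding transcript (mean 14.1 TPM) and the rest from a retained-intron transcript (5.07 TPM). Hoxa7 had 97.0% from coding transcripts, of which ENSMUST00000048715.8 had 15.4 TPM, ENSMUST00000134367.3 had 3.67 TPM and ENSMUST00000150041.3, a short form in which no homeobox was found, 2.07 TPM. With protein-coding transcripts alone the Hox10 share was 38.9% and the level of the numbers 7 to 10 was 25.2, 24.6, 43.5 and 85.8 TPM, so that Hox8 lay just under Hox7.

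**Figure D3:**
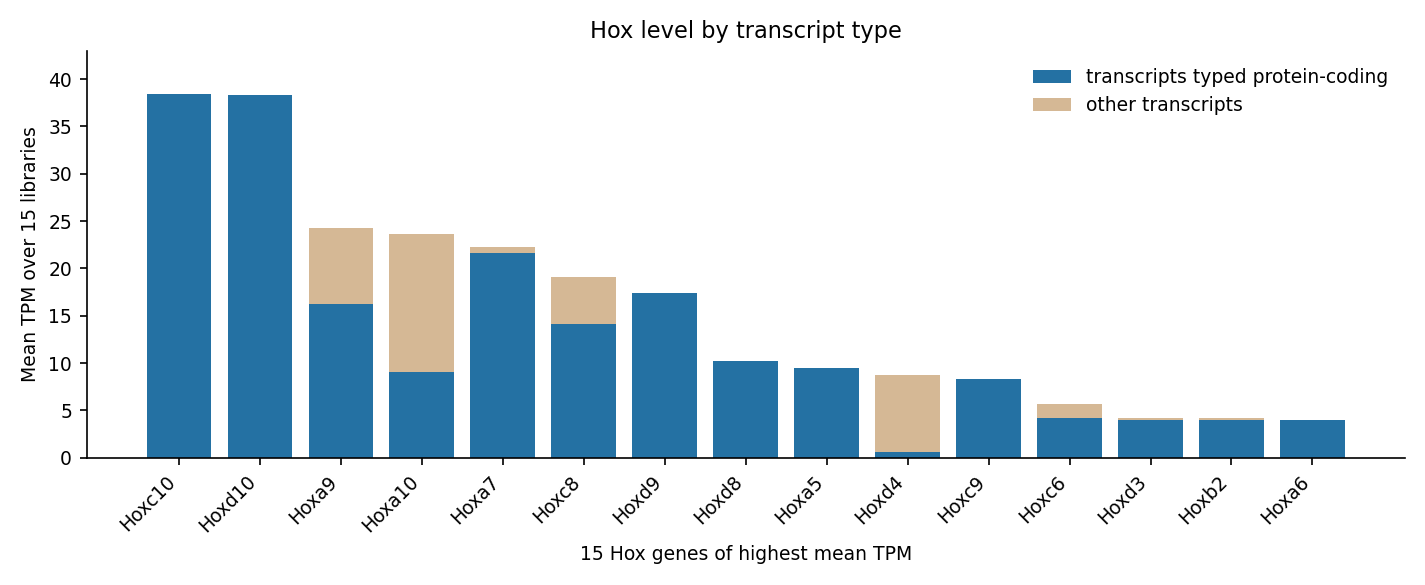
Mean TPM over 15 libraries (y axis, linear) of the 15 most abundant Hox genes, split into transcripts typed protein-coding (blue) and other types (tan). Other types were assigned most of the TPM of Hoxa10 (14.3 TPM in its main transcript) and nearly all of that of Hoxd4, and none of that of Hoxc10 or Hoxd10.

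The comparison of SMA with WT asks whether loss of Smn is accompanied by a change in the Hox pattern. No Hox gene passed the test. limma on log2(TPM + 1) over all 15 libraries, with Benjamini-Hochberg adjustment over 15425 genes, called 0 of the 26 members that passed the filter on low values, against 0.363% of all tested genes, and 2 members (Hoxb7 and Hoxb9) had an unadjusted p under 0.05, against 13.5% of all genes. The 13 members that did not pass the filter, which asked for 1 TPM in 3 libraries, were not tested. Hoxb7, a gene of middle number in the low HoxB cluster, had the smallest p. It stood at 0, 1.09 and 1.69 TPM in WT and 6.54, 4.94 and 5.47 TPM in SMA, with no overlap; the log2 change was 1.90 (SE 0.59), with an adjusted p of 0.23 in limma (0.13 to 0.73 over the alternatives). The 0.73 came from leaving out WT 1, the library with Hoxb7 at 0. With a pseudocount of 0.1, which widens the distance from a value of 0, the log2 change was 3.26. Hoxb9, a posterior thoracic gene, stood at 0.0416, 0.591 and 1.20 TPM in WT and 0.674, 3.88 and 3.58 TPM in SMA, and these ranges overlap (log2 change 1.12, SE 0.52, adjusted p 0.37 in limma; 2.16 with a pseudocount of 0.1).

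For the lumbar genes the log2 change, SMA minus WT, was 0.11 for Hoxa10 (95% interval -0.56 to 0.78), 0.01 for Hoxc10 (-0.75 to 0.76) and -0.09 for Hoxd10 (-0.96 to 0.78). Each of these 3 changed sign under some alternative, and the intervals include changes in both directions. In 4 members every SMA library was above every WT library (Hoxd3, Hoxa6, Hoxb7 and Hoxd8), against 14.5% of all tested genes, and in 0 members below, against 3.81%. Hoxa6, a brachial gene, stood at 1.09, 2.86 and 4.21 TPM in WT and 7.37, 4.93 and 4.90 TPM in SMA. Of the 26 tested members 23 had a higher mean log2 level in SMA, with a median change of 0.29 beside 0.24 for all tested genes, 66.5% of which were higher. With median-of-ratios scaling, which moved the median of all genes to 0.04, the split was 15 higher and 10 lower of 25 with a median of 0.05, and without the 2 libraries of highest mitochondrial share it was 17 and 9. Of all tested genes 52.7% and 63.3% were higher in these fits, in that order. All 11 microglial, all 8 astrocyte, 8 of 10 oligodendrocyte lineage and 6 of 8 motor neuron markers were also higher in SMA, and their part in the Hox values was not tested.

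**Figure D4:**
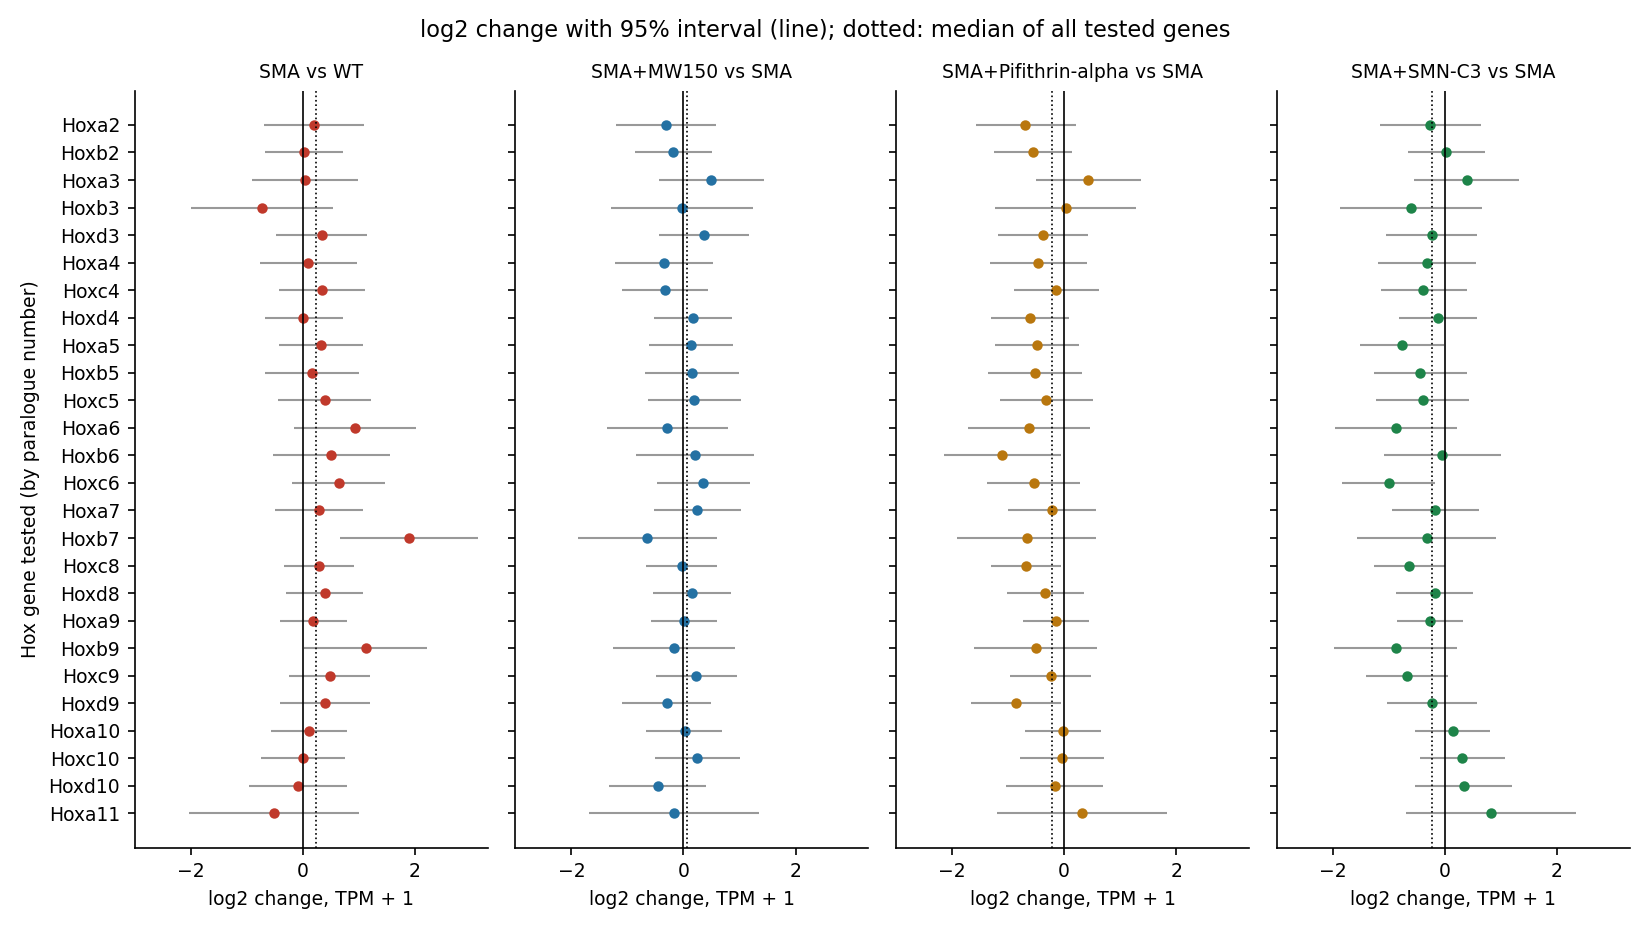
The log2 change in TPM + 1 (x axis) of the 26 tested Hox genes (y axis, by paralogue number) in 4 comparisons, with 95% intervals as lines, a solid line at 0 and a dotted line at the median of all tested genes. No member is called in any panel, and Hoxb7 in SMA against WT is the point farthest from 0, at 1.90.

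MW150 was compared with vehicle in SMA pups to ask whether p38α inhibition alters these levels. limma called 0 of 26 members, against 0.00648% of all tested genes, and 0 had an unadjusted p under 0.05, against 1.90% of all genes. The members' median log2 change was 0.01 beside 0.06 for all genes, with 14 higher and 12 lower, and 57.9% of all genes were higher. In 3 members every MW150 library was above every SMA library (Hoxa3, Hoxd3 and Hoxc6), against 7.53% of all genes, and in 0 members below, against 3.41%. In the main coding transcripts of Hoxa3 and Hoxc6 the groups overlapped. Hoxd10 had a log2 change of -0.46 (SE 0.41, 95% interval -1.33 to 0.40) and the smallest p, with an adjusted p of 1 in limma. Hoxa3, a hindbrain and cervical gene, stood at 0.591, 0.894 and 1.23 TPM in SMA and 1.76, 1.94 and 1.35 TPM under MW150, a log2 change of 0.50 (SE 0.45). The log2 change was 0.25 for Hoxc10 (95% interval -0.51 to 1.01) and 0.02 for Hoxa10 (-0.66 to 0.69). Of the 11 microglial markers 9 were lower and 2 higher, and of the 10 oligodendrocyte lineage markers 7 were higher. Of the astrocyte markers 1 of 8 was higher, and of the motor neuron markers 4 of 8. The part of these cell types was not tested.

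Pifithrin-alpha was compared with vehicle in SMA pups to ask the same of p53 inhibition. limma called 0 of 26 members, against 0.00648% of all tested genes, and 3 had an unadjusted p under 0.05 (Hoxb6, Hoxc8 and Hoxd9), against 10.7% of all genes. In 4 members every Pifithrin-alpha library was below every SMA library (Hoxb2, Hoxd4, Hoxb6 and Hoxd9), against 9.76% of all genes, and in 0 members above, against 5.53%. Hoxd9 had a log2 change of -0.86 (SE 0.38) and Hoxc8 of -0.68 (SE 0.30), each with an adjusted p of 0.46 in limma. Hoxb6, a gene of middle number, stood at 2.50, 3.45 and 4.54 TPM in SMA and 1.30, 0.988 and 0.882 TPM under Pifithrin-alpha (log2 change -1.11, SE 0.49). Hox10 genes were near the SMA level: the log2 change was -0.02 for Hoxa10 (95% interval -0.69 to 0.65), -0.04 for Hoxc10 (-0.79 to 0.72) and -0.17 for Hoxd10 (-1.04 to 0.70). All 3 were above 0 with median-of-ratios scaling, at 0.23, 0.22 and 0.09.

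Of the 26 tested members 23 were lower under Pifithrin-alpha, with a median change of -0.42 beside -0.22 for all genes, of which 34.4% were higher. With median-of-ratios scaling 16 of 25 were lower, with a median of -0.26 beside -0.02, and 48.4% of all genes were higher. Without SMA+Pifithrin-alpha 3 and WT 1, the libraries of highest mitochondrial share, 18 of 26 were lower, with a median of -0.15 beside 0.00. Of all genes 50.5% were higher in that fit. All 11 microglial and all 10 oligodendrocyte lineage markers, 7 of 8 astrocyte and 7 of 8 motor neuron markers were also lower, and their part was not tested. The count of calls changed under 1 alternative: with limma's library weights 10 of the 26 members were called, against 33.4% of all tested genes. In that fit SMA+Pifithrin-alpha 2 had a weight of 275.92 and the other 14 libraries 0.09 to 1.83, so the group's level was in effect that of 1 library.

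SMN-C3 was compared with vehicle in SMA pups to ask whether raising SMN alters these levels. limma called 0 of 26 members, against 0.0648% of all tested genes, and 3 had an unadjusted p under 0.05 (Hoxc6, Hoxa5 and Hoxc8), against 8.53% of all genes. In 5 members every SMN-C3 library was below every SMA library (Hoxa5, Hoxa6, Hoxc6, Hoxc8 and Hoxc9), against 18.2% of all genes, and in 0 members above, against 2.52%. In the coding transcript of Hoxc8 the groups overlapped, at 9.92, 13.1 and 12.1 TPM under SMN-C3 and 19.5, 27.3 and 12.7 in SMA. The log2 change of Hoxc6 was -1.0 (SE 0.39, adjusted p 0.51 in limma) and that of Hoxa5 -0.77 (SE 0.35, adjusted p 0.57 in limma). Hoxc9 stood at 9.23, 13.1 and 6.89 TPM in SMA and 6.03, 4.46 and 6.28 TPM under SMN-C3. The Hox10 genes lay on the other side of 0: the log2 change was 0.14 for Hoxa10 (95% interval -0.54 to 0.81), 0.31 for Hoxc10 (-0.45 to 1.07) and 0.34 for Hoxd10 (-0.53 to 1.20), and all 3 intervals include 0. Of the 26 tested members 20 were lower, with a median of -0.26 beside -0.23 for all genes, of which 26.6% were higher. With median-of-ratios scaling 14 of 25 were lower, with a median of -0.02 beside -0.00, and 49.5% of all genes were higher. All 11 microglial, all 10 oligodendrocyte lineage and 7 of 8 astrocyte markers had lower means here too, whereas 7 of 8 motor neuron markers had higher ones (median log2 change 0.10), and their part was not tested.

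The treated groups were also set against WT, which shares its 3 libraries with the comparison of SMA with WT. limma called 0 members under MW150 (0.143% of all tested genes), 0 under Pifithrin-alpha (0.117%) and 0 under SMN-C3 (0.0194%). Members with an unadjusted p under 0.05 numbered 2 under MW150 (Hoxc6 and Hoxb7), 0 under Pifithrin-alpha and 2 under SMN-C3 (Hoxb7 and Hoxb3), against 10.2%, 5.78% and 7.31% of all tested genes. Every MW150 library was above every WT library in 7 members (Hoxd3, Hoxc5, Hoxc6, Hoxa7, Hoxd8, Hoxb9 and Hoxc9), against 17.9% of all genes, and below in 0, against 2.0%. Under Pifithrin-alpha 0 members were above all WT values, against 4.79%, and 1 (Hoxb2) was below, against 2.07%. Under SMN-C3 1 member (Hoxb7) was above, against 4.03%, and 2 (Hoxa5 and Hoxc8) were below, against 8.82%. In the coding transcript of Hoxc8 SMN-C3 and WT overlapped. Hoxb7 stood at 1.55, 2.45 and 7.61 TPM under MW150, 7.10, 0.576 and 4.60 under Pifithrin-alpha and 6.45, 2.39 and 4.92 under SMN-C3. Its log2 change against WT was 1.25 (SE 0.59), 1.22 (SE 0.59) and 1.58 (SE 0.59) in that order, with adjusted p of 0.49, 0.87 and 0.66 in limma. Of the treated groups only SMN-C3 had all its Hoxb7 values above the WT values. Hoxc6 was 0.99 higher on the log2 scale under MW150 (SE 0.39, adjusted p 0.46 in limma). Hoxb3, a hindbrain and cervical gene, stood at 9.76, 2.18 and 3.87 TPM in WT and 2.28, 0.630 and 0.978 TPM under SMN-C3 (log2 change -1.32, SE 0.60, adjusted p 0.67 in limma). Coding transcripts held 42.1% of Hoxb3 TPM (8.65% to 100% by library). The main coding transcript stood at 5.06, 1.25 and 0.985 TPM in WT and 1.35, 0.583 and 0.978 under SMN-C3. Hoxd4 had a log2 change of -0.60 (SE 0.33) under Pifithrin-alpha.

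Over all 5 groups at once, the moderated F test of limma called 0 of 26 members, against 0.220% of all tested genes, and the smallest adjusted p was 0.48. Hoxb7 and Hoxc6 had an unadjusted p under 0.05, against 9.46% of all genes. With library weights the F test called 18 members, against 64.0% of all tested genes, and Pifithrin-alpha against WT called 4 (Hoxd4, Hoxb6, Hoxc9 and Hoxd10), against 24.4%, with the same weight on 1 library.

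Summed over the members, Hox TPM was 251 ± 72.1 in WT, 283 ± 16.6 in SMA, 282 ± 34.4 under MW150, 229 ± 44.3 under Pifithrin-alpha and 257 ± 15.2 under SMN-C3 (SD, n = 3 each). The range of every group overlapped that of every other. The mean paralogue number weighted by TPM, a summary of the axial position of the Hox signal, was 8.17 ± 0.40 in WT, 8.06 ± 0.23 in SMA, 7.96 ± 0.03 under MW150, 8.29 ± 0.36 under Pifithrin-alpha and 8.39 ± 0.20 under SMN-C3 (SD, n = 3 each). By library it was 7.75, 8.20 and 8.55 in WT, 8.21, 7.79 and 8.19 in SMA, 7.98, 7.93 and 7.97 under MW150, 8.08, 8.10 and 8.70 under Pifithrin-alpha and 8.31, 8.61 and 8.25 under SMN-C3. Each SMN-C3 library lay above the 3 SMA and the 3 MW150 libraries, the Pifithrin-alpha libraries lay above the MW150 libraries, and the WT libraries, which spanned nearly the whole range, overlapped every other group. With log2 weights SMN-C3 and SMA overlapped, at 7.08, 7.46 and 7.18 under SMN-C3 and 7.12, 6.88 and 7.10 in SMA. No test was made on these sums. Per library, Hox11 TPM was 0.171% to 5.48% of Hox10 TPM, with the highest values in SMA+Pifithrin-alpha 3 and WT 3 (5.41%), and the 3 SMN-C3 libraries at 1.48%, 2.75% and 1.57%. The share from Hox10 genes was 39.8 ± 10.4% in WT, 34.6 ± 6.97% in SMA, 32.7 ± 2.24% under MW150, 40.4 ± 6.15% under Pifithrin-alpha and 45.1 ± 4.32% under SMN-C3.

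**Figure D5:**
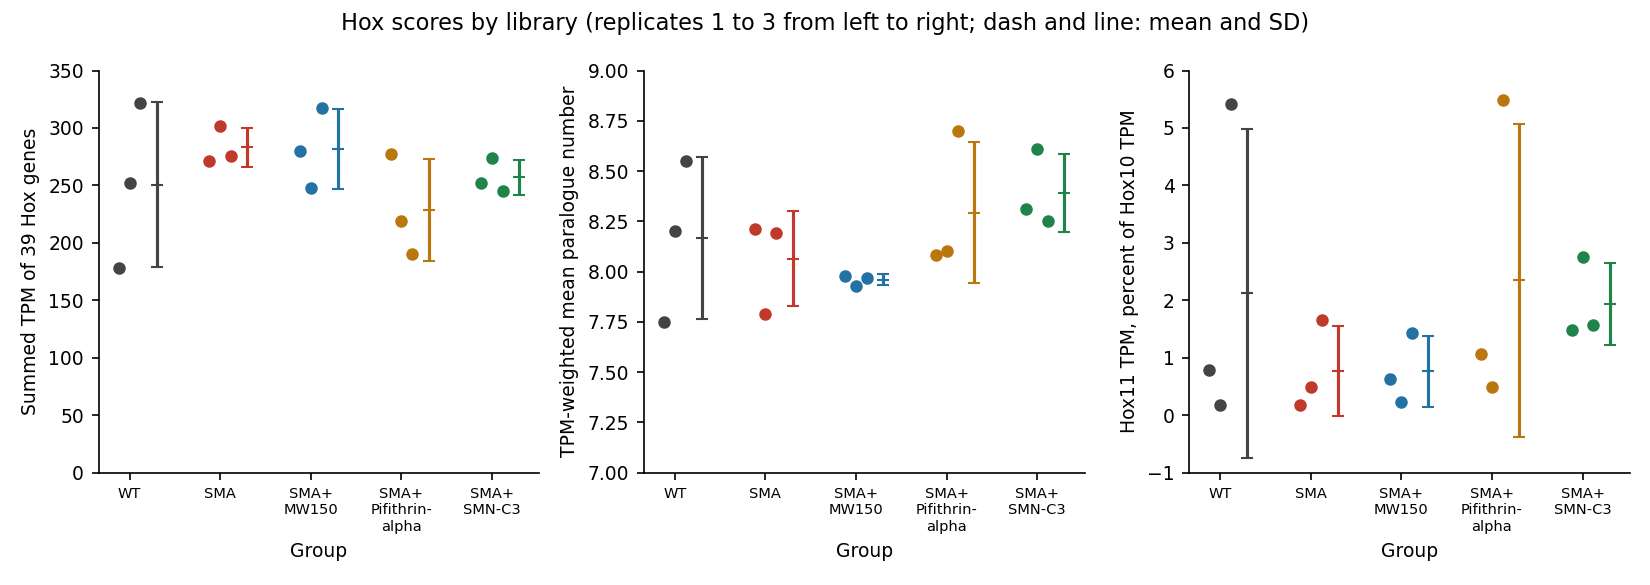
Summed Hox TPM, TPM-weighted mean paralogue number (axis from 7 to 9) and Hox11 TPM as a percentage of Hox10 TPM in each library, by group, with replicates 1 to 3 from left to right and the group mean and SD beside them. The 3 WT libraries span 178 to 322 TPM and mean numbers of 7.75 to 8.55, and the SMN-C3 libraries lie between 8.25 and 8.61.

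Genes that work with or maintain the Hox pattern were read in the same fits, from lists of 9 TALE cofactors, 22 Polycomb genes, 8 trithorax genes, 12 axial patterning inputs and 18 motor column and pool genes. None of these lists had a gene called in any of the 7 comparisons in limma. TALE homeodomain proteins of the Pbx, Meis and Pknox families bind DNA together with Hox proteins. All 9 were tested: 3 had a higher mean in SMA than in WT (median log2 change -0.08). Meis2 had a mean of 47.7 TPM. Pbx2 stood at 1.62, 5.69 and 2.16 TPM in WT and 11.3, 4.68 and 4.14 in SMA, a log2 change of 0.90 (SE 0.49). Meis2 had -0.37 (SE 0.33) in the same comparison, with its highest value in WT 1.

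Polycomb proteins keep Hox genes silent where they are not used, and trithorax proteins keep them active. Of 22 Polycomb genes 21 were tested, and 14 were higher in SMA (median 0.23, close to the 0.24 of all genes). Kdm2b, a subunit that brings a Polycomb complex to CpG islands, stood at 7.85, 3.42 and 6.08 TPM in WT and 11.6, 8.94 and 10.4 in SMA with no overlap (log2 change 0.79, SE 0.34, adjusted p 0.35 in limma). Every SMA library was above every WT library in 14.5% of all tested genes. Phc1 and Phc2, Polyhomeotic homologues, had 0.88 (SE 0.43) and 0.98 (SE 0.47). Phc2 was lowest in WT 1, at 5.72, 25.2 and 27.8 TPM in WT and 27.9, 39.1 and 32.3 in SMA. All 8 trithorax genes were tested and 6 were higher in SMA (median 0.30): Ash2l and Rbbp5, core subunits of histone H3 lysine methyltransferase complexes, had log2 changes of 0.87 (SE 0.42) and 0.67 (SE 0.34), and Psip1, which helps bring such a complex to Hox loci, had -0.56 (SE 0.29). WT 1, the library of highest mitochondrial share, held the lowest Ash2l and the highest Psip1 value. Ash2l stood at 8.59, 23.0 and 42.0 TPM in WT and 42.3, 35.9 and 36.9 in SMA. Psip1 stood at 413, 194 and 199 TPM in WT and 186, 193 and 137 in SMA.

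Of the axial patterning inputs 8 passed the filter, and Cdx1 and Cdx2, which switch on Hox genes in the embryo, were at 0 in all 15 libraries. All 18 motor column and pool genes were tested, 10 of them higher in SMA (median 0.12). Etv4, a pool marker, stood at 1.06, 4.80 and 6.50 TPM in WT and 6.81, 10.2 and 7.33 in SMA (log2 change 1.01, SE 0.50, adjusted p 0.38 in limma). Lhx3, a marker of the medial motor column that serves axial muscle, had 0.78 (SE 0.55), and Mecom, a zinc finger transcription factor, stood at 1.47, 1.68 and 2.31 TPM in WT and 0.728, 1.34 and 0.469 in SMA (log2 change -0.63, SE 0.40). Every SMA value of Etv4 exceeded every WT value, as in 14.5% of all tested genes. The reverse held for Mecom, as in 3.81% of all tested genes, and neither gene was called. Both were named for their small p-values in this comparison. Across all the lists read here, marker lists included, the only gene called was the microglial C1qc, higher in SMA than in WT by 1.86 on the log2 scale (SE 0.32, adjusted p 0.014 in limma).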

How the data were processed

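Laser-captured motor neurons gave 15 libraries in 5 groups of 3 biological replicates, sequenced as paired ends of 100 bases. The authors deposited TPM per gene and per transcript, made with kallisto 0.44.0 on GRCm38.p6 (mm10), per the submitters' processing notes. Each library sums to 1000000. The annotation release is not given in the sources used here: 98.5% of 118489 transcripts matched GENCODE M21, from which types, positions and sequences were read. TPM keep no read depth, so no interval for counting error can be given, and the number of libraries limits the precision.

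The 15425 genes that reached 1 TPM in 3 or more libraries were fitted as log2(TPM + 1) with limma 3.58.1 in R 4.3.3, with 1 mean per group over all 15 libraries, a mean-variance trend and Benjamini-Hochberg adjustment, and called at an adjusted p under 0.05. Log2 changes of low genes are understated on this scale, and intervals are 95% intervals. The procedure was run on simulated data, and the outcome is not reported here. How likely a small Hox change was to be called is therefore not given. The Hox genes and the gene lists were chosen with earlier results of these data known. Values per library are given for the highest gene of each paralogue number, the 10 highest members and the 2 smallest p-values of each comparison, and for other lists the 3 smallest p-values in SMA against WT, with further members named where groups did not overlap. Alternatives covered the pseudocount, the filter, scaling, library weights, the samples fitted, a replicate block and leaving out libraries. Some genes that this rule names are not reported here. The 14 Hox cluster noncoding genes looked for were absent from the listed genes, so they were not analysed here.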

Additional observations from a re-analysis of the deposited data

How the results depend on the processing

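No Hox gene was called in any of the 7 comparisons or the F test under any alternative except limma's library weights, which called 10 in Pifithrin-alpha against SMA, 4 in Pifithrin-alpha against WT and 18 in the F test, with SMA+Pifithrin-alpha 2 at a weight of 275.92. With those weights Hoxb7 in Pifithrin-alpha against WT was -0.48, Hoxa10 in SMA against WT -0.11, Hoxc10 in SMA against WT -0.03 and Hoxa10 in MW150 against SMA -0.01 (log2 changes). With median-of-ratios scaling Hoxa10 and Hoxc10 were -0.13 and -0.24 in SMA against WT, Hoxa10 was -0.06 in MW150 against SMA, and Hoxa10, Hoxc10 and Hoxd10 were 0.23, 0.22 and 0.09 in Pifithrin-alpha against SMA. Without mitochondrially encoded genes in the total, Hoxc10 was -0.10 in SMA against WT, and Hoxa10 and Hoxc10 were 0.09 and 0.08 in Pifithrin-alpha against SMA. Without the 2 libraries of highest mitochondrial share, Hoxa10 and Hoxc10 were -0.23 and -0.36 in SMA against WT and 0.13 and 0.15 in Pifithrin-alpha against SMA. Leaving out 1 library at a time, SMA against WT ran from -0.23 to 0.36 for Hoxa10, -0.36 to 0.45 for Hoxc10 and -0.48 to 0.32 for Hoxd10. MW150 against SMA ran from -0.12 to 0.10 for Hoxa10 and -0.03 to 0.47 for Hoxc10, and Pifithrin-alpha against SMA from -0.24 to 0.13 for Hoxa10, -0.31 to 0.19 for Hoxc10 and -0.44 to 0.06 for Hoxd10. The cause of these sign changes was not tested.

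With log2 weights the mean paralogue number was 7.09 in WT, 7.03 in SMA, 7.0 under MW150, 7.26 under Pifithrin-alpha and 7.24 under SMN-C3. Without the most abundant member it was 7.78 in SMA, 7.61 under MW150 and 8.07 under SMN-C3, and from protein-coding transcripts alone, an alternative chosen after seeing the data, 8.03 under MW150. Summed Hox TPM in SMA, MW150 and SMN-C3 was 257, 241 and 280 with median-of-ratios scaling, 247, 241 and 214 without the most abundant member and 241, 232 and 221 from protein-coding transcripts. Without mitochondrially encoded genes it was 300 in SMA and 279 under SMN-C3. Over all genes, the number called in SMA against WT was 56, and 7 to 162 over the alternatives that kept every replicate of the groups compared. For MW150, Pifithrin-alpha and SMN-C3 against SMA it was 1, 1 and 10, with ranges of 0 to 3, 0 to 5155 and 0 to 331; for the same drugs against WT 22, 18 and 3, with ranges of 12 to 248, 0 to 3760 and 2 to 59; and for the F test 34, with a range of 17 to 9866. The highest count came from the library weights each time. The lowest came from fitting only the groups compared for SMA, MW150 and Pifithrin-alpha against WT, and for SMN-C3 against SMA. A replicate block called 0 Hox genes in every comparison and 48 genes in SMA against WT. Replicate numbers do not pair the libraries: deviations of same-numbered libraries correlated at -0.342 to 0.285 (30 pairs), and 4 of 15 libraries correlated best with their own number.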

Other observations

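Foxp1 and Aldh1a2, which mark limb-level motor neurons and were picked after their values had been seen, were set beside the summed Hox10 level. Aldh1a2, which makes retinoic acid, stood at 28.3, 28.5 and 262 TPM in WT and 2.51, 66.7 and 181 TPM in SMA, so libraries differed widely within these groups. The treated groups were more even, at 137, 122 and 145 TPM under MW150, 161, 100 and 109 under Pifithrin-alpha and 94.3, 137 and 138 under SMN-C3. Foxp1, a determinant of limb motor neurons, stood at 9.71, 8.31 and 53.1 TPM in WT and 5.42, 29.0 and 38.0 TPM in SMA. It stood at 39.8, 31.5 and 34.5 TPM under MW150, 32.0, 17.2 and 14.3 under Pifithrin-alpha and 13.7, 25.1 and 26.7 under SMN-C3. Over 15 libraries, 4 relations were computed (Hox9 and Hox10 with each gene), each with 100000 permutations. Hox10 with Aldh1a2 had a Pearson's r of 0.39 (permutation p 0.15, adjusted 0.31) and a Spearman's rho of 0.56 (permutation p 0.031, adjusted 0.12), and without WT 1 and WT 3 r was 0.14 and rho 0.37, with r of 0.46 within groups. For Hox10 with Foxp1, r was 0.42 (permutation p 0.12, adjusted 0.31) and rho 0.30 (permutation p 0.28, adjusted 0.55), with r of 0.05 and rho of -0.01 without WT 1 and WT 3, and r of 0.53 within groups. Hox9 had r of 0.11 with Foxp1 (permutation p 0.70) and -0.25 with Aldh1a2 (permutation p 0.38), and rho of 0.15 (permutation p 0.60) and -0.09 (permutation p 0.75). Without WT 1 and SMA 2, r of Hox9 was -0.15 with Foxp1 and -0.51 with Aldh1a2. None of the 4 relations passed the correction, and the permutations ignored the groups. The libraries left out were those farthest from the median Hox level, which narrows its range. Whether the narrower range accounts for the fall in Pearson's r of Hox10 without WT 1 and WT 3 was not tested.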
